A study of Drosophila melanogaster with 3 samples.

Results

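CG12942 binding in introns close to transcription start sites (TSSs) was described from 848 peaks of the 3844 in the authors' optimal list on the dm6 assembly (22.1%, 95% Wilson interval 20.8 to 23.4). A peak belonged to this set when its summit lay inside an annotated gene, in no exon of any gene, and between 501 and 5000 bp from the nearest TSS of a protein-coding transcript in Ensembl release 115. Within that list the rule used position only, so peak strength, sequence and recovery in the replicates did not enter it. The list itself had been selected by the authors for reproducible ranks in these replicates. The data are chromatin immunoprecipitation sequencing (ChIP-seq) peaks from whole Drosophila melanogaster embryos of 0 to 24 hours, sexes pooled. All embryos came from a transgenic line in which CG12942 carries a C-terminal GFP tag, and an anti-GFP antibody was used for precipitation of sonicated chromatin. There is 1 group of 3 biological replicates with separate biosamples. No untagged or input library was analysed here, and an embryo collection this wide mixes many cell types and stages.

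Introns of Drosophila genes often hold enhancers, and the first intron in particular is a common place for regulatory elements and for alternative promoters. A transcription factor bound there can act on the host gene, on a neighbour, or on neither, and a peak position alone does not tell which. A peak can also mark a contact made through another protein, because ChIP recovers indirectly bound DNA.

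Sequences at the summits are shown first, since the members were AT-rich at the centre, shared AT-rich words with promoter peaks of the same list, and seldom held the DRE. Each run is 101 bases of the RefSeq Release 6 genome (dm6), plus strand, 5' to 3', centred on the summit and named by the gene that holds it. In the first 5, from strong members, capitals mark the TATA box letters TATAAAA or one of 10 7-mers that were commoner at promoter summits than in their flanks, on either strand. These 10 words, which overlap each other, were TTAAAAA (in 103 members), TTTAAAA (113), AAAAATA (117), AAAATAT (128), AAATAAA (119), TAAAATA (99), AAAATAA (110), TATTTAA (89), TAAATAA (93) and ATTTTAA (118). Their shares ran from 10.5% to 15.1% of members, 11.2% to 16.8% of all optimal peaks and 12.7% to 18.2% of promoter peaks. Only ATTTTAA was more frequent at members (13.9%) than in the whole list (13.1%), and the other words were less frequent.
ush (chr2L:481040-481140): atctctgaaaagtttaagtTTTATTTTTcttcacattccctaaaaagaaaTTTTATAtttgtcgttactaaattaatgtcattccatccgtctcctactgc
CG11050 (chr2L:6612665-6612765): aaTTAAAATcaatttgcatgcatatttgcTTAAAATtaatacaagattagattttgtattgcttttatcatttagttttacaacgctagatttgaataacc
Trl (chr3L:14759457-14759557): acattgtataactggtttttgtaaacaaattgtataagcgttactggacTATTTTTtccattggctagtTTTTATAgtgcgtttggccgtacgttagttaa
Tlk (chrX:3742159-3742259): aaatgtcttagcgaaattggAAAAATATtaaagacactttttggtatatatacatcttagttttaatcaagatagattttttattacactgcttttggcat
CG9837 (chr3R:8811637-8811737): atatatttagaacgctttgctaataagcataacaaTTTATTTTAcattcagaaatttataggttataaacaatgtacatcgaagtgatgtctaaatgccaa
The peaks in Lk6 and CG9663 are strong members whose windows hold none of these words, so nothing is in capitals.
Lk6 (chr3R:11761006-11761106): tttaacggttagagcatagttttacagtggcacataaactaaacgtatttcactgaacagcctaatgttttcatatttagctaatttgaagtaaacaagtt
CG9663 (chr2L:3302145-3302245): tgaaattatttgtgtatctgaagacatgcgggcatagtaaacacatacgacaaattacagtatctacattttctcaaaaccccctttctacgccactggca
The next 3 hold CACTGAG on either strand, in capitals, a word found more often at members than at promoter peaks.
CG34417 (chrX:6549820-6549920): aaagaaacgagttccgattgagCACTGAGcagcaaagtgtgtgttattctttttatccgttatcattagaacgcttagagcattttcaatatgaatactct
aop (chr2L:2163635-2163735): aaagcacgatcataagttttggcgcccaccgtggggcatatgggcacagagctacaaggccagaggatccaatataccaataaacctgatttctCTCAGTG
mew (chrX:13234202-13234302): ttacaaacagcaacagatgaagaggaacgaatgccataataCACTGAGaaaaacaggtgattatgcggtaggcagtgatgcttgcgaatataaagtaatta
The last 2 are the members with the DRE, TATCGATA, in capitals, an element bound by the promoter and boundary factors DREF and BEAF-32.
Stt3A (chrX:21053262-21053362): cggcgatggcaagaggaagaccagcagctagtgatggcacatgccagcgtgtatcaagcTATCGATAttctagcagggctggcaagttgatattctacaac
Ncoa6 (chr2L:5325023-5325123): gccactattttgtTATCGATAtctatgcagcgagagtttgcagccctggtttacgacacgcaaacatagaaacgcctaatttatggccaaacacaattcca
The 5 windows with CACTGAG or the DRE were chosen after their values were seen.

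The strongest member (dm6 2L, 480878 to 481299) lay in an intron of ush (FBgn0003963), which encodes a cofactor of GATA factors. Its summit was 1402 bp upstream of the start of the neighbouring gene cbt, a zinc finger transcription factor gene. The authors' peak signal, the enrichment score of their peak caller, was 1387 in the optimal list, rank 3 of 3844. It was 478, 405 and 501 in the lists of replicates 1, 2 and 3, where the peak ranked 4, 3 and 3. Replicate lists have signal scales of their own, so only ranks and percentiles are comparable between them. The next (2L, 6612490 to 6612913) was in CG11050 (FBgn0031836), 1028 bp downstream of that gene's nearest start, with 1281 in the optimal list and 486, 355 and 438 in the replicates. Both stood among the 10 highest peaks of every replicate list.

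Lk6 encodes a kinase that acts on the translation factor eIF4E. Its member (3R, 11760869 to 11761244) lay 977 bp upstream of the nearest Lk6 start and had a signal of 1116 in the optimal list and of 422, 318 and 375 in the 3 replicates. The member shared by HmgZ and HmgD, overlapping genes for high mobility group DNA-binding proteins, was 531 bp from a HmgZ start and reached 960 (300, 296 and 366 in the replicates). CG32772 (915), CG9663 (826) and CG3726 (633) came next among genes without a given name. The member of Trl, the gene of GAGA factor (3L, 14759321 to 14759743), had 717 in the optimal list and 254, 202 and 265 in the replicates, 1542 bp downstream of the nearest Trl start. Raf, the kinase below Ras, held one at X, 2297554 to 2297873, with a signal of 640, and of 213, 194 and 231 in the replicates. It lay 2252 bp downstream of the nearest Raf start.

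Among the strong members were also those in cno, which encodes the junction protein Canoe (629), Tlk, a Tousled-like kinase gene (625), mub, an RNA-binding protein gene (619), CG12769 (600), Adf1, a transcription factor gene (592), and in sequence common to Hyls1 and chif (554). CG9837 (549), CG4496 (540), trx, the histone methyltransferase gene trithorax (536), CG31635 (530) and LPCAT, a phospholipid acyltransferase gene (517), completed the 20. All 20 were matched in every replicate, meaning that a summit lay within 200 bp among the 3844 strongest peaks of each. In 13 of the 20 the peak was within the first 100 of every replicate list. The lowest rank was 245, for Adf1 in replicate 1, where its signal was 128 against 192 and 267 in replicates 2 and 3. Of the 20, 17 lay in a first intron, 19 had a start of a host gene as the nearest one, and 5 had a peak at that nearest start as well.

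**Figure D1:**
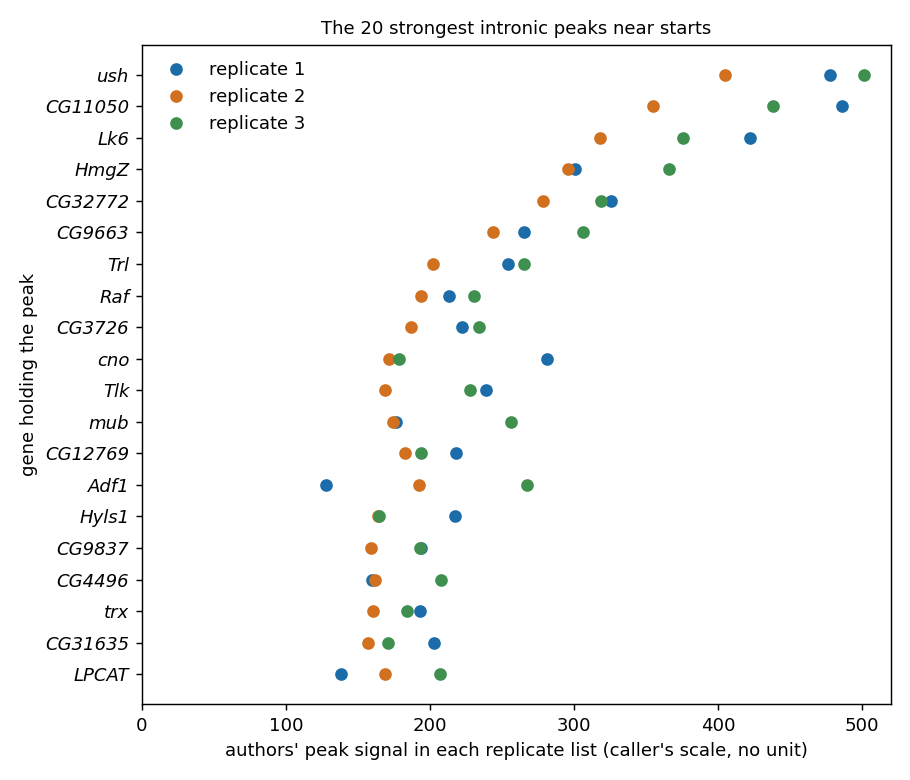
Signal of the 20 strongest members (1 per host gene, in order of optimal signal) in each replicate's list; each point is 1 replicate on the caller's own scale, which has no unit. Replicate 2 was lowest for 17 of the 20, and the points of Adf1 lie widest apart for their level, from 128 to 267.

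The 3 members nearest to the inner limit were those in CG3630 (507 bp, signal 84.6), Pen (508 bp, 147) and Pdp1 (508 bp, 174), and the 3 intronic summits just short of it, each at 496 bp, were in DopEcR (84.4), next to the start of CG34136 (91.1) and in jar (224). At the outer limit the last members were in Mnt (4984 bp, signal 131), GEFmeso (4989 bp, 80.7) and cv-c (4999 bp, 132). The first summits beyond it were in shep (5045 bp, 92.3), Lrch (5051 bp, 271) and corn (5069 bp, 98.1).

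Per length of sequence, intronic peaks near starts were less dense than promoter peaks and denser than peaks elsewhere. Eligible intron, meaning every intronic base that the rule admits, came to 21.5 Mb, or 16.0% of the 6 chromosome arms. Replicates 1, 2 and 3 placed 854, 839 and 855 of their 3844 strongest summits there (22.1% ± 0.233, SD, n = 3), a density of 39.6 ± 0.418 summits per Mb. Promoters, taken as all bases within 500 bp of a protein-coding TSS, had 131 ± 2.16 per Mb. Introns more than 5000 bp from a start, called deep introns here, had 14.2 ± 0.0543, intergenic sequence 14.0 ± 1.01 and exons outside promoters 3.33 ± 0.245.

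The log2 ratio of the density near starts to that of deep introns was 1.49, 1.46 and 1.48 in replicates 1, 2 and 3, a mean of 1.48 ± 0.0149, or 2.79-fold. Against intergenic sequence the density was 2.83-fold higher, and against promoters it was 0.302 of theirs. All 3 replicates had the same direction in each of these contrasts. The exact sign permutation test over 3 replicates (two-sided) gave p = 0.25 for each, which is the smallest p it can give, so a threshold of 0.05 was out of reach for this and every later replicate contrast. How many reads can be placed in each class was not measured.

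Peak strength was also between that of promoter peaks and that of deep intronic peaks, and the classes overlapped widely. The median optimal signal of the members was 124 (quartiles 95.4 and 179), against 134 for promoter peaks, 110 for deep introns, 114 for intergenic and 119 for exonic peaks. Within each replicate's 3844 strongest peaks, signal was turned into a percentile, on which 100 is the strongest. The median percentile of members was 48.9, 47.1 and 48.5 in replicates 1, 2 and 3. Relative to promoter peaks this was −4.79, −8.58 and −7.25 points, and relative to deep intronic peaks 7.53, 8.06 and 9.05 points. The means were −6.87 ± 1.93 and 8.22 ± 0.772 points (SD, n = 3; exact sign permutation p = 0.25 for each). Against intergenic peaks the members stood 5.52 ± 2.41 points higher, in 3 of 3 replicates. Against exonic peaks the difference of 0.785 ± 4.17 points had no common direction (exact sign permutation p = 0.75).

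**Figure D2:**
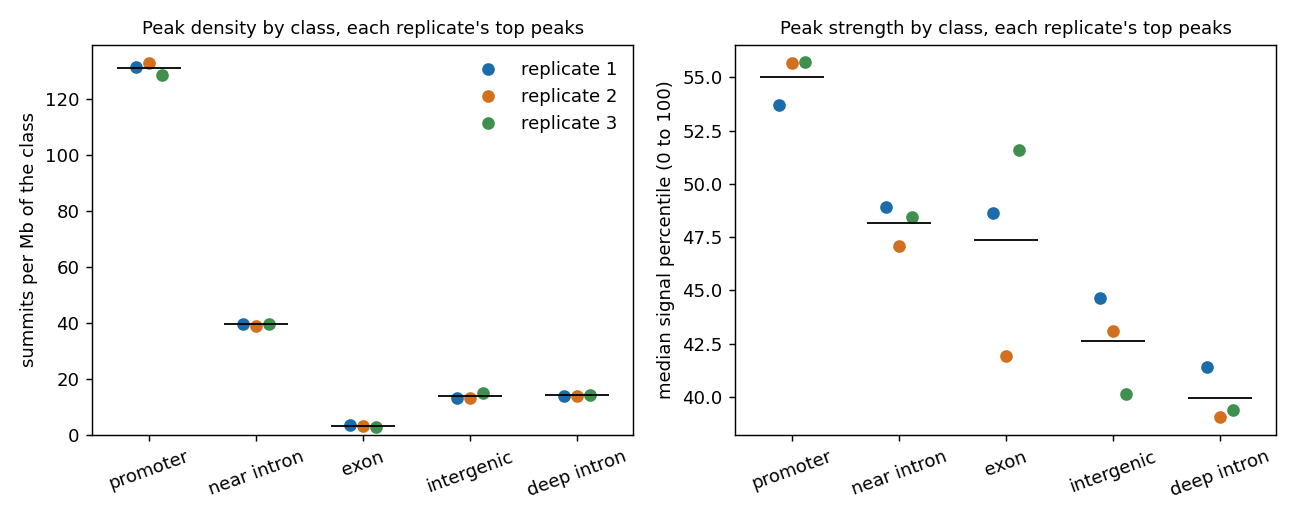
Left, summits per Mb of each class, and right, the median signal percentile of its peaks, for the 3844 strongest peaks of each replicate (points) with the mean over replicates (lines); near intron is the class described here, and the right axis does not start at 0. Near-start introns had 39.6 summits per Mb against 14.2 in deep introns, and their median percentiles of 47.1 to 48.9 lay below all 3 promoter values.

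Members held 21 of the 100 strongest optimal peaks, 93 of the 481 strongest (19.3%) and 110 of the 480 weakest (22.9%). The set was therefore spread over the whole range of strength.

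Recovery in the replicates was close to that of the whole list. Because the authors made that list from these same replicates, the values compare members with other listed peaks and are no independent check. Of the 848 members, 553 (65.2%, 95% Wilson interval 61.9 to 68.3) were matched among the strongest peaks of all 3 replicates, against 63.5% of all optimal peaks. A further 207 were matched in 2 replicates, 84 in 1 and 4 in none. Neighbouring members could be matched to the same replicate peak, so these are counts of members and not of separate replicate peaks. The share was 66.4% for promoter peaks, 54.1% for deep intronic and 57.5% for intergenic peaks. It depended on strength, being 99.5% in the strongest 212 members and 91.5%, 59.0% and 10.8% in the following groups of 212. In the full, relaxed replicate lists 837 of the 848 had a summit within 200 bp in all 3, and so did 3780 of the 3844 optimal peaks. Across these 837 the Spearman rho of signal was 0.651 for replicates 1 and 2, 0.635 for 1 and 3 and 0.696 for 2 and 3, as a description across peaks of libraries that the authors had already used to select the list.

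Within the set, density was highest next to the inner limit and levelled off beyond 2000 bp. The median distance from the nearest start was 1614 bp (quartiles 919 and 2845). From 501 to 1000 bp there were 248 members, or 64.1 per Mb, then 42.6 per Mb up to 2000 bp, 29.9 up to 3000 bp, 27.7 up to 4000 bp and 31.2 up to 5000 bp. Median signal ranged from 127 in the 1001 to 2000 bp bin to 111 in the outermost, and the share matched in all replicates from 69.1% to 53.1% in the same bins.

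Members were on both sides of the nearest start, with 539 downstream (63.6%) and 309 upstream of it. An intronic summit can lie upstream of a start of its own gene because many genes have several starts, and this held for 229 of the 309. Of all eligible bases 67.8% were downstream, so per base the upstream side was the denser one by a small margin. The share downstream was 65.3%, 64.7% and 62.8% in the replicates, a mean of −3.48 ± 1.32 points relative to the eligible share, lower in 3 of 3 (exact sign permutation p = 0.25). From 501 to 1000 bp the replicates gave 73.4 ± 5.59 summits per Mb upstream and 58.4 ± 2.03 downstream, and their ranges did not overlap. From 1001 to 3000 bp the sides overlapped. From 3001 to 4000 bp the means were 34.2 ± 4.19 upstream and 25.6 ± 1.97 downstream, and from 4001 to 5000 bp the values were 35.8 ± 2.98 upstream and 24.6 ± 0.947 downstream.

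**Figure D3:**
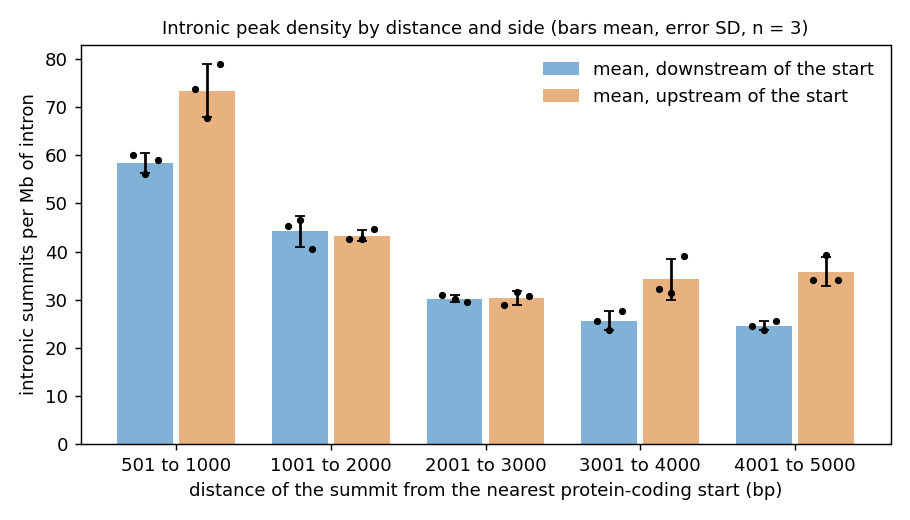
Intronic summits per Mb of eligible intron by distance from the nearest protein-coding start (bp) and side; bars are means over the 3 replicates' strongest 3844 peaks, error bars SD and points single replicates. Density lay between 56.2 and 78.9 per Mb in the innermost bin and between 23.7 and 39.2 in the outermost.

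First introns held most members. The summit lay in the first intron of a transcript for 659 of 848 (77.7%), against 58.5% of eligible bases, and the replicates differed from the eligible share by 19.2 ± 0.515 points, higher in 3 of 3 (exact sign permutation p = 0.25). The share exceeded that of eligible bases in each distance bin, with 85.5% against 70.8% from 501 to 1000 bp and 59.4% against 48.0% from 4001 to 5000 bp. The nearest start belonged to a gene holding the summit for 734 members (86.6%, against 74.3% of eligible bases), and to another gene for 114. The difference was 12.9 ± 0.196 points in the replicates, with the same direction in all 3 (exact sign permutation p = 0.25). A noncoding start lay within 500 bp of 17 members (2.00%, against 1.53% of eligible bases).

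Many members were accompanied by a second peak at the nearest start. For 195 members (23%) an optimal summit lay within 500 bp of the TSS to which the member was nearest. This share depended on settings, being 13.0% among the 1922 strongest peaks, 15.2% with a window of 250 bp around the start and 52.7% with one of 1000 bp, where members inside the window count for themselves. With 500 bp the same held for 11.6% of eligible bases, for 65 of 407 deep intronic peaks (16.0%) and for 54 of 464 intergenic peaks (11.6%). In replicates 1, 2 and 3 the shares were 26.0%, 21.8% and 22.6% for members and 20.1%, 15.5% and 19.0% for deep intronic peaks. Members stood 11.7 ± 1.73 points above eligible bases and 5.26 ± 1.43 points above deep intronic peaks, in 3 of 3 replicates each (exact sign permutation p = 0.25 for both). The share over distance bins ran from 20.4% to 25.6%, each above the eligible value of its bin. The median signal was 126 for members with a peak at the start and 123 for those without.

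The closest other optimal summit of any class was a median of 3094 bp from a member, against 5177 bp over all optimal peaks and 7225 bp for deep intronic peaks. It lay within 1000 bp for 174 members (20.5%), against 15.3% of all optimal peaks, 14.99% of promoter peaks and 8.85% of deep intronic peaks. Promoter peaks lie within 500 bp of a start, and deep introns over 5000 bp from any. The class limits alone therefore keep promoter peaks away from deep intronic summits, which fixes part of the contrast with deep introns. Among members themselves, 68 pairs had summits within 1000 bp. A total of 6 members shared start and end with another optimal peak and differed in the summit, so these pairs are not independent regions. Other neighbouring members overlap in part, and neighbours can be matched to the same replicate peak. Both kuk members, with optimal signals of 256 and 213, were matched to the peak of rank 605 in replicate 1.

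Of the 848 members, 838 lay in protein-coding genes and 10 in noncoding genes only. The hosts were 618 protein-coding genes, which is 6.74% of the 9174 with eligible intron, and 47 members lay in more than 1 gene. Host genes were long, with a median of 6.08 kb of eligible intron against 0.454 kb over all eligible genes, and longer introns offer more room for a member. Promoter peaks were present at 237 of the 618 hosts (38.3%) and at 2082 of the 9174 eligible genes (22.7%), a comparison that was not adjusted for length or number of starts. A single member was found in 448 genes, 2 in 118 genes and 3 or more in 52 genes.

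The gene with the most members was CG1677 on X, with 12 in 58.1 kb of eligible intron, of which 10 were matched in all replicates (signals 87.6 to 269). Starts of other genes lie within CG1677, and among the 12 were members nearest to starts of Dok, CBP, brk and unc-119. Tlk and the forkhead factor gene CHES-1-like held 7 each, 6 of them matched in all replicates in both genes. In Tlk the signals ran from 108 to 625, and in CHES-1-like from 87.2 to 405. A total of 6 members lay in each of ush, shn, which encodes the Dpp pathway factor Schnurri, and apt, which encodes the transcription factor Apontic. The ush members spanned 41033 bp and a signal range from 79.5 to 1387. NFAT, CG42258 and the chromatin factor gene tou held 5 each. Genes with 4 were HmgD and HmgZ, which share theirs in part, Raf, CG32264, Kdm2, sick, CG10543, Dys, kirre, Btk, shep, RhoGAP18B, sbb and RhoGAP19D. All 4 members of CG10543, in only 3.23 kb of eligible intron, were matched in every replicate. Genes with 3 were Trl, CG9837, CG9328, bmm, Tpr2, Evi5, beat-Ib, crp, mbc, Kank, drongo, arr, hiw, osp, CG14434, Pdp1, msn, Shrm, wake, pum, ckn, Nuak, CG13917, Mnt, Socs36E, Spn, larp, SNF4Agamma and CG42674. None of the 3 in Spn or CG42674 was matched in all replicates.

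Gene groups were compared per Mb of eligible intron, because of the effect of length. Over all protein-coding genes the replicates gave 39.8 ± 0.559 members per Mb (SD, n = 3). Of 19 lists, 15 had a mean above this value and 10 were above it in each of the 3 replicates. In every list the share of eligible genes hosting a member, from 8% to 38.9%, exceeded 6.74%, but the listed genes also have longer introns than the median gene. Many list counts are below 10, and neighbouring peaks in 1 gene are counted separately. The lists also share genes, such as sgg (Wnt and circadian) and vri (ecdysone and circadian), so they are not separate outcomes. A member counts for the gene that holds it, although the nearest start can belong to another gene. For the strongest members in mam, drk, arr, wit, ttv, Ptp61F, Sesn, br, ush, insc, NetB, fra and egr the nearest start was another gene's. Without the gene of most members in each list, a comparison added after the data were seen, 7 of the 15 lay below the mean of all genes, namely patterning, JAK-STAT, insulin and TOR, axon guidance, cell junction, cell cycle and Hedgehog genes.

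Chromatin regulators had the highest density, 134 ± 6.63 members per Mb, with 12, 11 and 12 summits in replicates 1, 2 and 3 in 87.1 kb. In the optimal list 5 of 35 eligible genes were hosts, namely Trl, trx (signal 536, and 193, 161 and 184 in the replicates), the Polycomb group gene ph-p (180), kis and psq, so the density rests on few genes. Without Trl the value was 106 ± 7.03. In the same list 20 of 37 genes (54.1%) had a promoter peak, against 19.2% of all protein-coding genes.

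Genes of the Dpp pathway, the fly's BMP signalling, had 118 ± 19.7 members per Mb and 10, 12 and 14 summits. The hosts were the signal transducer Mad (281), shn (250), the receptor gene wit (208), sog and tkv, 5 of 14 eligible genes. Without shn, which held 6 of the 10 optimal members, the value was 64.6 ± 8.61. A promoter peak was found at 0 of the 18 genes of this list, against 19.2% of all protein-coding genes. The EGFR and Ras list had 101 ± 8.41 per Mb in 7 of 18 genes. It was led by Raf, by aos, the gene of the secreted inhibitor Argos (390), and by the adaptor gene drk (270), and it also held aop, pnt, Egfr and sty.

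The Wnt list had 79.1 ± 11.7 per Mb, with the co-receptor gene arr (191), the antagonist gene nkd (155) and the kinase gene sgg (120) first among 6 hosts of 17. JAK-STAT genes had 67.7 ± 8.37 per Mb, with Stat92E (170), Ptp61F (168) and Socs36E (127), and 31.7 without Socs36E. Embryo patterning genes had 66.9 ± 9.58, where 4 of 27 were hosts, ush and the Hox genes Abd-B (143), Antp (112) and lab. Of the 10 optimal members of that list 6 lay in ush, and without it the density was 31.2 ± 14.99, below that of all genes. The actin list had 62.5 ± 7.74, with the ezrin-related Moe (297), Msp300 (223) and hts (217) first among 10 hosts of 28. The ecdysone list had 50.5 ± 2.50, with Eip63E (209), br (187) and Eip75B (181) first among 8 hosts of 21.

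The remaining lists above the value for all genes rested on fewer summits, varied more between replicates or lay closer to it. Apoptosis genes had 116 ± 50.1 per Mb from 3, 3 and 6 summits, in genes such as Diap1, an inhibitor of caspases (224), egr (167) and puc (114). Circadian genes had 71.1 ± 14.5 with Pdp1 (174), dco (166) and vri (131), insulin and TOR genes 54.6 ± 18.9 with the receptor gene InR (477), Sesn (223) and REPTOR (216), and cell cycle genes 49.9 ± 17.3 with CycE (170) and E2f1 (118). Cell junction genes had 43.6 ± 16.5, with cno, crb (139) and pyd (135). Axon guidance genes had 43.5 ± 6.87, with NetB (209), ena (202) and fra (182), and Hedgehog genes 40.2 ± 8.70, with boi (138) and ttv (129). In the optimal list Hedgehog genes had 30.1 per Mb, below the 39.6 of all genes there.

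By replicate mean, the lists below the value for all genes were Notch, with 39.5 ± 6.23 per Mb and mam (289), neur (214) and N itself (90.3), neural factors, with 39.2 and 7 summits in each replicate and brat (413), elav (250) and insc (128), muscle genes, with 34.5 ± 8.30 and kirre (282), mbc (216) and Mef2 (96.9), and Hippo genes, with 32.3 ± 40.3. Hippo genes had 4, 0 and 1 summits in the replicates, in kibra (159) and wts (80.5). In the optimal list Notch genes had 53.9 and muscle genes 43.9 per Mb, above all genes, so the side of these lists depended on which peaks were counted. No test between lists was made.

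Members were denser on X than on the large autosomal arms. X had 206 members, or 46.6 per Mb of eligible intron, and the 4 arms 2L, 2R, 3L and 3R had 641, or 38.1 per Mb. The difference over replicates was 9.47 ± 4.12 per Mb, with 4.72, 11.6 and 12.1 in replicates 1, 2 and 3 (exact sign permutation p = 0.25). Deep introns had the same direction, with 18.6 ± 1.29 on X and 13.3 ± 0.232 on the autosomal arms. Promoter peaks had the opposite one, with 117 ± 7.87 and 134 ± 3.88. The embryos were of mixed sex, and X copy number was not adjusted for. Chromosome 4 had 1 member, in Asator, with a signal of 87.8, matched in all 3 replicates.

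GC content dipped sharply at the summits. Within 50 bp of a summit the members averaged 32.9% GC, against 42.9% in windows of the same width centred 400 bp to each side and 39.6% over 184985 windows tiling eligible intron. The summit window was lower than its flanks in 702 of 848 members (82.8%). The same held for 79.6% of all optimal peaks, 78.6% of promoter peaks and 83.0% of deep intronic peaks. The dip was therefore shared by the whole list and did not set the members apart. For members, summit minus flank was −9.29, −9.21 and −10.5 percentage points in replicates 1, 2 and 3, lower in all 3 (exact sign permutation p = 0.25). The dip differed from that at promoter peaks by 0.268 ± 0.525 points, with no common direction over replicates (exact sign permutation p = 0.5). The flanks were richer in GC than eligible intron in general, so the dip sat inside a locally GC-rich stretch. Flank windows were not limited to intron and can lie in exons or promoters, which the eligible windows exclude. Base composition also affects how well fragments amplify and are sequenced, and this was not tested.

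**Figure D4:**
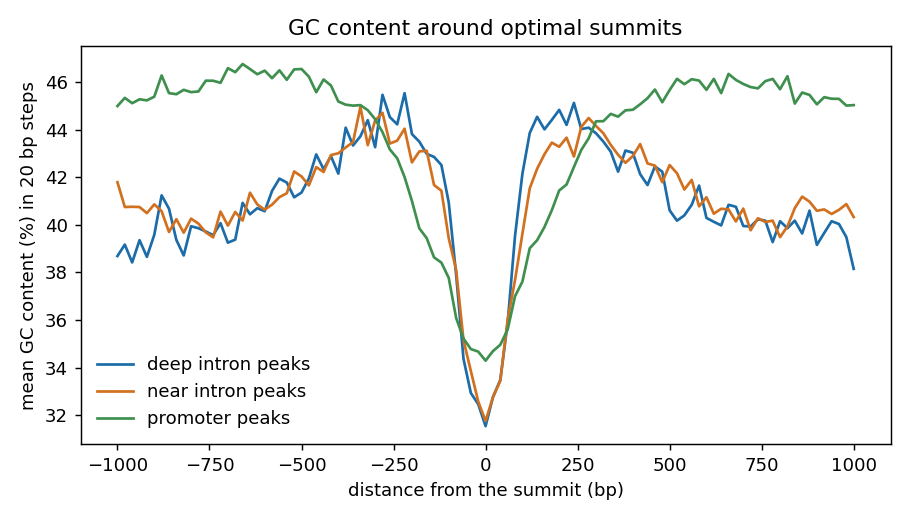
Mean GC content (%) in 20 bp steps by distance from the optimal summit (bp) for intronic peaks near starts (near intron), deep intronic peaks and promoter peaks; the vertical axis does not start at 0. Members averaged 31.8% at the summit, 45.0% at −340 bp and 44.5% at 280 bp, with a dip narrower than that of promoter peaks.

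The AT-rich words of promoter summits recurred at members. At least 1 of the 10 leading 7-mers printed above was within 50 bp in 474 members (55.9%), against 56.0% of all optimal peaks, 58.3% of promoter and 55.5% of deep intronic peaks. It was present in 38.1% of eligible windows and in 30.6% of the members' flanks. The words were ranked on promoter peaks, so the members did not enter the ranking. The TATA box letters were in 85 members (10.02%), 10.3% of promoter peaks and 5.28% of eligible windows, and the homeodomain core TAATTA in 10.1%, 10.5% and 8.19%. All of these words are rich in A and T, and the base composition of the windows moves with them.

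The DRE and related words were about as frequent at members as in eligible windows. The DRE was in 2 members (0.236%, 95% Wilson interval 0.0647 to 0.856) and in 68 promoter peaks (3.39%), against 0.176% of eligible windows. The difference from promoter peaks was −3.64 ± 0.428 points in the replicates, lower in 3 of 3 (exact sign permutation p = 0.25). CGATA, a BEAF-32 site that lies within the DRE, was in 95 members (11.2%), close to the 10.8% of eligible windows, and in 23.4% of promoter peaks. Here the difference was −12.2 ± 1.34 points, lower in 3 of 3 (exact sign permutation p = 0.25). Motif 1 of core promoters, GGTCACAC, was in 1 member (0.118%) and in 1.69% of promoter peaks. The E-box CAGCTG was in 2.36% of members, 5.13% of promoter peaks and 3.73% of eligible windows. Deep intronic peaks were like members in this respect, with 0 of 407 holding the DRE, which allows a share of up to 0.737%, and 8.85% holding CGATA.

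**Figure D5:**
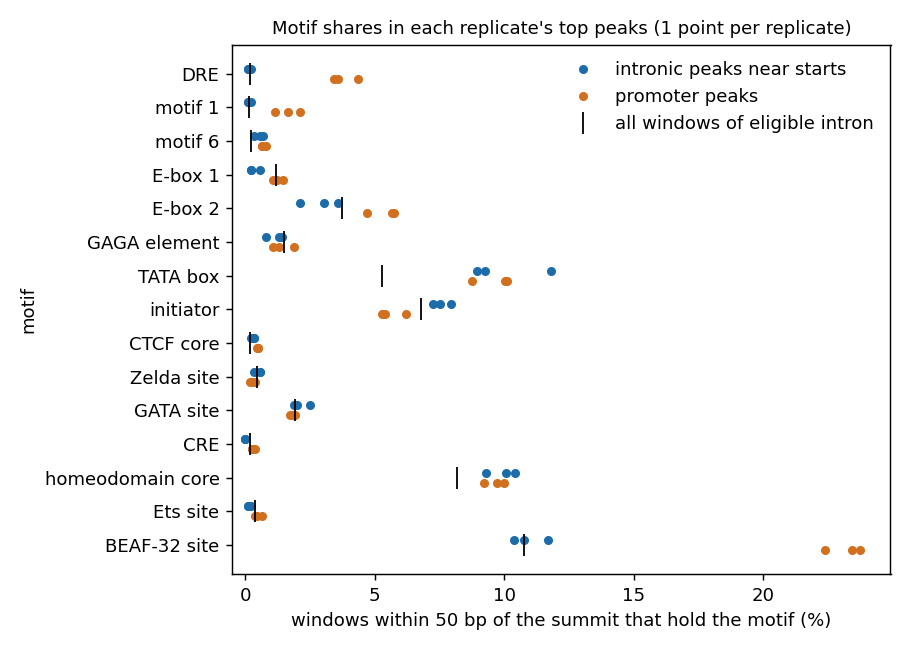
Share of windows within 50 bp of the summit (%) holding each of 15 motifs on either strand, with 1 point per replicate for intronic peaks near starts and for promoter peaks, and a tick for all windows tiling eligible intron; E-box 1 is CACGTG and E-box 2 CAGCTG. The BEAF-32 site CGATA was in 10.4% to 11.7% of members and 22.4% to 23.7% of promoter peaks, while the TATA box shares of both sets overlapped above the tick.

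The remaining motifs were rare or near the level of eligible windows. GGTATTTTT, motif 6, was in 4 members (0.472%), against 0.229% of eligible windows and 0.468% of all optimal peaks. The CTCF core AGGTGGCG was in 4 (0.472%, against 0.171% and 0.780%) and the E-box CACGTG in 4 (0.472%, against 1.20% and 0.911%). The Zelda site CAGGTAG was in 6 (0.708%, against 0.451% and 0.468%). The CRE TGACGTCA and the Ets site CCGGAAG were in none of the 848, which allows shares of up to 0.354% (3 counts of the total). Eligible windows held them at 0.192% and 0.365%, and all optimal peaks at 0.156% and 0.468%. The GATA site, TGATAAG, was in 2.48%, against 1.90% of eligible windows and 2.11% of all optimal peaks. TCAGTT, the initiator letters, was in 7.67%, against 6.77% and 6.01%, and in 5.43% of promoter peaks. In the replicates its share at members was 1.95 ± 0.821 points above that at promoter peaks, higher in 3 of 3 (exact sign permutation p = 0.25). The GAGA element GAGAGAG was in 0.825% of summit windows and in 5.31% of the windows 400 bp away, with 1.51% in eligible windows and 2.29% in the flanks of promoter peaks. These letters were thus more frequent beside the members' summits than on them. The windows beside the summits can lie in exons or promoters, which eligible windows exclude.

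A second ranking, chosen after the data were seen, took 7-mers by their excess over what trinucleotide composition predicts. At promoter summits it was led by CTATCGA, in 118 promoter peaks where 17.5 were predicted, and in 3 members where 5.45 were predicted. ACTATCG (111 promoter peaks, 1 member), AGTGTTG (132 and 8), ATCGATA (141 and 9) and AGGGATG (43 and 7) followed. The predicted member counts were 5.34, 12.9, 11.6 and 3.36 in that order, so among these words only AGGGATG exceeded its prediction at members. Ranked instead on deep intronic and intergenic summits, the leading words were GCGCCAC (7 members, 2.81 predicted), CGCCATC (6), CACTGAG (21, 5.84 predicted), GAGAGAA (27, 8.82 predicted) and ACTGAGA (26, 8.17 predicted). CACTGAG overlaps with ACTGAGA, and GAGAGAA with the GAGA element. CACTGAG was in 2.48% of members, 1.20% of promoter peaks, 0.873% of eligible windows and 0.767% of the members' flanks. It was in 3.19% of deep intronic and 3.23% of intergenic peaks, on which the ranking was made. In the replicates it was in 2.75% ± 0.209 of members and 1.23% ± 0.121 of promoter peaks, higher in 3 of 3 (exact sign permutation p = 0.25). GAGAGAA was in 3.18% of members and in 3.01% of their flanks, so it was not confined to the summit. The summit windows of CG34417, aop and mew printed above are from some of the strongest members with CACTGAG, with signals of 288, 217 and 166.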

How the data were processed

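CG12942-GFP ChIP-seq peaks of 3 replicates of 1 group were analysed. Column 7 of each peak list is the signal value deposited by the authors, an enrichment written by their peak caller. The optimal list came from the replicate and pooled calls, made against a control, through IDR (a filter on how reproducibly peaks rank), per the authors' deposited file listings. Aligner and caller: not given in the sources used here. Read totals are lacking as well, so depth is unknown and no interval from reads is printed.

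Summits were classed with Ensembl release 115 on dm6 as promoter (within 500 bp of a protein-coding TSS), exon, near intron (up to 5000 bp), deep intron or intergenic. The 3844 strongest peaks of each replicate (of 30000, 30000 and 27870) gave replicate means. Contrasts used the exact sign permutation test, two-sided. Its p-values measure the spread between 3 replicates only. Wilson 95% intervals cover counting error only, and neighbouring peaks are not independent. Summit windows of 50 bp to each side were scanned for motifs in both orientations. The sequences come from the RefSeq Release 6 genome. Coordinates are 1-based.

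The members, lists, motifs and tests were chosen with earlier results of these data known, and spellings in the gene lists were corrected after values were seen. Of the listed symbols, phm and Unc-89 were not found. Genes were named by rule: the hosts of the 20 strongest members, up to 3 hosts per list by signal, genes with 3 or more members, and the 3 summits on each side of both distance limits. Other names serve a small count or a printed sequence, and were chosen after their values were seen. The alternatives tried were the strongest peaks only, leaving out each replicate, other starts, limits, windows and matching distances. Scripts were tested on simulated data. Tools were matplotlib 3.10.9, pandas 2.3.3, scipy 1.17.1, numpy 2.4.6 and Python 3.11.15.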

Additional observations from a re-analysis of the deposited data

How the results depend on the processing

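Density and both percentile contrasts kept their direction under every alternative run. Leaving out each replicate gave −7.91 to −6.02 percentile points against promoter peaks, 7.80 to 8.56 against deep introns and 1.47 to 1.49 for the log2 density ratio. These are means of the remaining replicates' values, which already shared a sign, so leaving out a replicate could not change the direction. Of all members 71.8% to 74.4% were matched in the remaining replicates. For the other results the optimal list, made with all 3 replicates, was kept but cut to peaks matched in the remaining replicates. This left 609 to 631 members, so these values are those of a filtered list. They were 21.9% to 22.7% for the share of peaks, 17.4% to 18.1% with the nearest start bound, 62.8% to 63.2% downstream and −10.7 to −10.4 points for GC. The share was 21.6% in the strongest 1922 peaks, 22.8% with starts of all genes and 15.6% over 1000 bp from the start, where the rule admits less sequence. Matching in all replicates was 96.2% in the strongest 1922 and 59.4% within 100 bp. The start was bound for 13.0% with the strongest 1922, which leaves fewer promoter peaks, 15.2% with a promoter window of 250 bp, and 52.7% with 1000 bp, where members inside the window count for themselves. The share downstream was 66.5% over 1000 bp from the start, where the eligible share also changes and was not recomputed. The GC difference was −7.89 points with 100 bp on each side. With peaks sharing start and end counted once, the share of peaks, the share with the start bound, the share downstream and the GC difference moved by less than the replicate spread, and 65.1% were matched in all replicates. This was not run for density and percentiles. No paired analysis was possible because there is 1 group. Depth is unknown, so weak peaks, of which 10.8% of the weakest 212 members were matched in all replicates, are the least certain.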
